A study of Mus musculus with 34 samples.

Results

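The sites described here are 6455 distal open chromatin sites of mouse male germ cells that were open in meiotic cells and round spermatids and had no peak in mature sperm. They were chosen by measured values: each is a row of the SV129 meiotic subnucleosome list, on chromosomes 1 to 19, that overlapped a peak in 3 further lists, those of WT meiotic cells, SV129 round spermatids and WT round spermatids. None overlapped a peak in the SV129 or WT sperm list, and none came within 500 bp of either end of a protein-coding gene. They make up 6455 of the 31983 autosomal rows of the SV129 meiotic list, of which 21641 lay over 500 bp from such an end. Presence in those 4 lists and absence from the sperm lists are therefore the rule and no result. The sperm lists were short, with 10495 autosomal rows in SV129 and 2957 in WT. They overlapped only 15.2% and 5.99% of all rows of the SV129 meiotic list, and 5.78% and 2.43% of the distal ones. Closing is used below only for the lack of a peak in both sperm lists.

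The peaks come from 34 ATAC-seq libraries, made with a transposase (Tn5) that inserts adapters where DNA is accessible. The libraries form 12 groups, 4 stages in 3 backgrounds. The cKO mice were C57BL6 GCN5-/-, with homozygous floxed alleles and Stra8-CRE, a recombinase driven by a gene that germ cells switch on about when they enter meiosis. The others were SV129 mice, wild type for Gcn5, and C57BL6 GCN5+/+ mice (WT), for which the labels do not say whether a Cre was present. The first stage is a fraction that the labels name meiotic spermatid and the protocol meiotic (MS). It is followed by round spermatids (RS), by elongating spermatids (ES), the condensing stage, and by mature sperm (Sp) from the cauda epididymis. The cKO and WT groups had 2 libraries each, and the SV129 groups 4, or 6 for sperm. The files hold no RNA value of Gcn5, so its loss was not checked. Animals were adults of 8 to 12 weeks with cells of 11 mice pooled for each collection, which the protocol states for SV129 mice. Fractions had at least 85% purity, which leaves room for other cells in each.

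Every group has 1 deposited list of subnucleosome peaks, taken here as open sites, and 1 of nucleosome calls, each 150 bp wide. With 1 list a group there is no replicate error. No difference between lists could be tested, and each is a difference between single lists. Intervals beside shares are Wilson 95% intervals and cover counting error alone. Read depth is unknown, and list length differed: at RS the autosomal subnucleosome lists held 4038 rows in cKO, 28935 in SV129 and 56048 in WT, and at MS 15587 in cKO, 31983 in SV129 and 34765 in WT. The part of depth in any share of the cKO lists was not tested.

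Distal open sites are, in most tissues, enhancers, insulators, and promoters of non-coding or alternative transcripts. In spermiogenesis the haploid round spermatid remodels its nucleus: histones become hyperacetylated and are exchanged for transition proteins and then protamines, and the chromatin becomes compact. Gcn5, encoded by Kat2a, is a histone acetyltransferase of the SAGA and ATAC complexes. The series asks how its loss bears on nucleosome changes in this period.

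The files hold no sequence, but 799 of the 6455 sites (12.4%, interval 11.6 to 13.2) overlapped a promoter window of the RefSeq gene set, 250 bases before to 50 after an annotated start, in build GRCm38.p6, the build of the files (mm10). These starts belong to long non-coding RNAs (lncRNAs) or are alternative starts inside or near protein-coding genes, since every site lies over 500 bp from a protein-coding gene end. The windows below show what such sites look like. They are the highest-scored ones with at least 200 bases in the site, picked for holding 1 of the pair of motifs that were most concentrated in the open bases, the X-box and the cyclic AMP response element (CRE). The X-box is the site of RFX transcription factors, which in mouse include regulators of spermatid and ciliary genes, and the CRE is the site of CREB and CREM, the last a regulator of spermatid genes. Capitals mark matches of the motif that the window was picked for, and any match of another motif is in lower case. The sequences are 5′ to 3′ on the strand of the gene.

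The first pair held an X-box and kept a peak in the cKO RS list. The window of the alternative Tmem9 start, chr1:136017751-136018050 on the plus strand, had 222 of its bases in the site chr1:136017829-136018072. That of the lncRNA 1700006H20Rik, chr3:136955038-136955337 on the minus strand, had 216 bases in the site chr3:136955098-136955313.
Tmem9: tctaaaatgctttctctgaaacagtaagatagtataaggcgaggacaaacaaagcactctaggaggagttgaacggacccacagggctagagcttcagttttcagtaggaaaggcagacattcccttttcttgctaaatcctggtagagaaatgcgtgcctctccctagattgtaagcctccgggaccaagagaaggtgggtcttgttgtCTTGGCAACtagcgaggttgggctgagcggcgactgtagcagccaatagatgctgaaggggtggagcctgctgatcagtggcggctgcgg
1700006H20Rik: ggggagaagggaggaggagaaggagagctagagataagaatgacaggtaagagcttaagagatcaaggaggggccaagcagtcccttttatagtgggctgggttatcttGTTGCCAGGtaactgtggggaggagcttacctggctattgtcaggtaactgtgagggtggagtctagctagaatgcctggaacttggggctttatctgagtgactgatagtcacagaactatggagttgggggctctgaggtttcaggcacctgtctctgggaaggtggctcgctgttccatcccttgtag

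The next pair held an X-box and had a peak in the cKO MS list and none in the cKO RS list. The window of the lncRNA Gm3474, chr13:117959028-117959327 on the minus strand, had 204 bases in the site chr13:117959124-117959420 and carried the motif at 2 places. The window of Spag6, a protein of the sperm flagellar axoneme, chr2:18698772-18699071 on the plus strand, lay wholly in the site chr2:18698721-18699102.
Gm3474: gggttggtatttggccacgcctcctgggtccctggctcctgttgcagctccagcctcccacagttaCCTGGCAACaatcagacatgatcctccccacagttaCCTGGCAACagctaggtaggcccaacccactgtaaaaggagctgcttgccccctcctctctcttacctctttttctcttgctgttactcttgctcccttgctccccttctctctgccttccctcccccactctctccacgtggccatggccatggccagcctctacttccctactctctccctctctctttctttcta
Spag6: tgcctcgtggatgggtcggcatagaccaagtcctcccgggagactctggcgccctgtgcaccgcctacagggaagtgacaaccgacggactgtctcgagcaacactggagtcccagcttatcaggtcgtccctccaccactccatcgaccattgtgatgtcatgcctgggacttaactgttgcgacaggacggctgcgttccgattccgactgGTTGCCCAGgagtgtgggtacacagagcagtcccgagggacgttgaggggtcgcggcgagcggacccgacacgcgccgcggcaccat

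The last pair was picked for a CRE, and the Gm13584 window also holds an X-box match, left in lower case. The window of the lncRNA Gm11608, chr1:63273124-63273423 on the minus strand, had 256 bases in a site with a peak in the cKO RS list, chr1:63273144-63273399. That of the lncRNA Gm13584, chr2:38368796-38369095 on the minus strand, had 249 bases in a site with none, chr2:38368847-38369112, which lies 625 bp from an end of Lhx2, a LIM homeobox transcription factor.
Gm11608: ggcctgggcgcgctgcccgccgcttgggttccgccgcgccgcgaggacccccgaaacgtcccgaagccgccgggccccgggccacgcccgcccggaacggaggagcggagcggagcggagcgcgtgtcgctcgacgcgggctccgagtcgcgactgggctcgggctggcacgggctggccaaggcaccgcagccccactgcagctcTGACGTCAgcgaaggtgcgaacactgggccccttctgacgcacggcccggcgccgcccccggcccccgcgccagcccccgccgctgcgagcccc
Gm13584: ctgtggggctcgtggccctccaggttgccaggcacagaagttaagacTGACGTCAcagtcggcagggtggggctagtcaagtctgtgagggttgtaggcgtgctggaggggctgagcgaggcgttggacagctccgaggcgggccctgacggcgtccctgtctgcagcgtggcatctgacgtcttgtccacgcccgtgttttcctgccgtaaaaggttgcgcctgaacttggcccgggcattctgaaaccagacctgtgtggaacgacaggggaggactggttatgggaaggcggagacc

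The 910 promoter windows on these sites belonged to 821 genes. Of the windows, 495 (54.4%) were those of protein-coding genes and 415 (45.6%) those of lncRNAs. An X-box (GTTGCCNNG on either strand) stood in 12.9% of them (interval 10.8 to 15.2), in 10.3% of 2880 windows at gene-end sites that closed in the same way, in 3.92% of 12155 windows over 500 bp from a protein-coding gene end without any SV129 MS peak, and in 5.09% of all 31396 autosomal windows. A CRE (TGACGTCA) stood in 5.27%, against 5.49% at gene-end closing sites, 0.576% of the windows without a peak and 1.83% of all windows. The CTCF core (AGGGGGCNC) stood in 3.19%, 3.85%, 1.42% and 2.33% of the same 4 sets. The MYB site (CAACTG), bound by A-MYB in meiosis, stood in 15.2% (13 to 17.6) of the windows on the distal closing sites. It stood in 9.97% (8.92 to 11.1) at gene-end closing sites, 15.5% of the windows without a peak and 13.4% of all windows.

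Windows on these sites were also richer in CpG than windows without a peak, with a median of 15 CpG dinucleotides against 4, and 7 in all windows. At gene-end closing sites the median was higher, 23. Among windows with at most 7 CpG, an X-box stood in 53 of 313 on the distal closing sites (16.9%, 13.2 to 21.5) and in 386 of 9549 without a peak (4.04%, 3.67 to 4.46). Among windows with more, it stood in 10.7% (8.48 to 13.5) and 3.45% (2.82 to 4.23). The CRE was in 1.6% (0.684 to 3.68) and 0.44% (0.326 to 0.594) of the CpG-poor windows, and in 7.2% (5.39 to 9.56) and 1.07% (0.744 to 1.55) of the CpG-rich ones. The higher shares than in windows without a peak thus held within both CpG classes, with intervals that did not overlap. Gene-end closing sites had an X-box in 22% (16.7 to 28.4) of CpG-poor and 9.52% (8.47 to 10.7) of CpG-rich windows. Their CRE shares were 1.05% (0.288 to 3.74) and 5.8% (4.98 to 6.75). These intervals overlapped those of the distal closing sites, which thus did not stand apart from gene-end ones. In 136 windows on distal sites with a peak in both sperm lists an X-box stood in 8.09% (4.58 to 13.9).

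Within the 910 windows the matches lay in the open stretch. There were 133 X-box matches over the 145739 bases inside a site and 15 over the 127261 remaining bases, or 0.913 and 0.118 matches per kb. In windows of gene-end closing sites the densities were 0.529 and 0.176. For the CRE there were 49 matches inside and 0 outside. MYB sites had 0.72 per kb inside and 0.432 outside. AP-1 sites (TGANTCA) went the other way, with 0.178 per kb inside and 0.228 outside, as did GATA sites (AGATAAG), with 0.0412 and 0.0864 from 6 and 11 matches. The open bases had 69.6 CpG per kb and 61.4% GC, and the remaining bases 40.6 CpG per kb and 54.3% GC; the part of base composition in these densities was not tested beyond the CpG classes above. A match is only a run of letters, and no binding was measured.

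**Figure D1:**
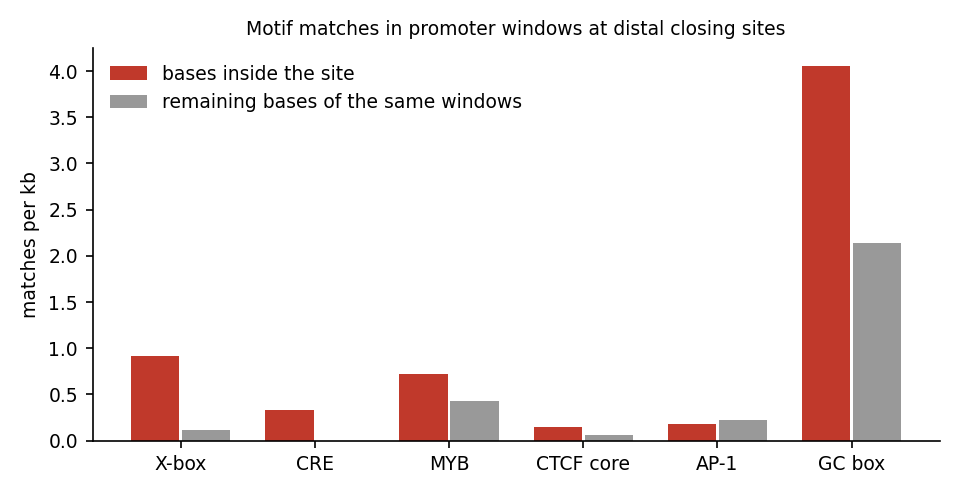
Motif matches per kb (vertical axis) for 6 motifs in the 910 promoter windows, with red bars for the bases inside a distal closing site and grey bars for the remaining bases of the same windows. X-box matches stand at 0.913 per kb inside and 0.118 outside, and CRE matches at 0.336 inside with none outside.

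MicroRNA genes are another kind of start that the rule left in. Mir132, Mirlet7i, Mir6349 and Mir6355 overlapped a distal closing site, and 14 of the sites had a miRNA end within 500 bp as their nearest non-coding end. The sequences below are the mature miRNAs of RefSeq from 4 of these genes, with the seed, bases 2 to 8, in capitals. The site chr11:75173563-75173851 covers the Mir132 hairpin and lies 84 bp from that of Mir212, and the 2 miRNAs share the seed AACAGUC.
mmu-miR-132-3p: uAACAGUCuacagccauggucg
mmu-miR-212-3p: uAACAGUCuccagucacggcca
mmu-let-7i-5p: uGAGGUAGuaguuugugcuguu
mmu-miR-34b-5p: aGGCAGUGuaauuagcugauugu

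The let-7i hairpin was overlapped by the site chr10:122985628-122985714, with another site, chr10:122985996-122986137, 271 bp away. The site chr9:51103910-51104177 lies 264 bp from the hairpin of miR-34b, a miRNA of meiotic and postmeiotic germ cells in mouse. None of the sites at these 4 genes had a peak in the cKO RS list, and 1 of them, the site on the let-7i hairpin, had a peak in the cKO MS list. Over the 14 sites at a miRNA end, 6 (42.9%, 21.4 to 67.4) had a cKO MS peak and 1 (7.14%, 1.27 to 31.5) a cKO RS peak. No RNA was measured in these data.

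The sites were narrow and scattered. Their median width was 157 bp, with the middle 50% from 113 to 215 bp and the whole range from 83 to 808 bp, against 218 bp for gene-end sites that closed in the same way, 264 bp for the 357 distal sites that kept a peak in both sperm lists, and 126 bp for all distal SV129 MS rows. They covered 1143454 bp in all. The median distance to the nearest protein-coding gene end was 28139 bp, with the middle 50% from 7616 to 96254 bp, close to the 24795 bp of all distal rows and longer than the 12293 bp of the distal sites kept in sperm. At the limit, the nearest sites counted lay 501 bp from an end of Pomc and of Tmbim6, and the nearest left out lay 499 bp from an end of Bicdl1 and of Dock3.

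Inside protein-coding genes lay 2823 of the sites (43.7%, 42.5 to 44.9), against 46.1% of all distal rows and 50.1% of the distal sites kept in sperm. A further 795 (12.3%) lay in a lncRNA gene only, and 2837 (44%) in neither. The density was 2.93 sites per Mb inside genes (962.3 Mb) and 2.49 outside (1459 Mb). With each gene divided into 5 equal parts, the one at the start held 658 (30.5%) of the 2156 sites in a single gene, and 30.9% of all distal rows so placed. Chromosome 10 had 3.58 sites per Mb and chromosome 4 had 1.82, the ends of the range. All distal rows also differed there, with 1451 on the 130.6 Mb of chromosome 10 and 1023 on the 156.4 Mb of chromosome 4. The sites were 32.3% and 27.9% of these rows, within a range over chromosomes from 25.2% to 36.4%.

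The 2208 genes that held at least 1 site had a median length of 76.1 kb, against 17.5 kb for all 20665 autosomal protein-coding genes, and 1770 of them held exactly 1. Genes with many sites were among the long ones. Gpc5, a glypican of the cell surface, held 12 sites over 1433 kb, and Sdk1, a cell adhesion protein, held 7 over 974.1 kb. In Gpc5, 4 of the 12 sites had a peak in the cKO MS list and 1 in the cKO RS list. Under 10 kb from a neighbour of the same set lay 727 of the sites (11.3%), in 351 runs, and 32.3% of all distal rows, a larger set with closer neighbours for that reason alone. Of the sites, 124 (1.92%) shared a WT RS peak with another, so the sites rest on 6391 distinct WT RS peaks.

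The lists that the rule did not use were those of cKO and of ES. In the cKO MS list 3578 of the sites had a peak (55.4%, 54.2 to 56.6), while the share over all autosomal SV129 MS rows was 44.5%. In the cKO RS list 891 had a peak (13.8%, 13 to 14.7), against 10.9% of all rows. Gene-end sites that closed in the same way had 67.4% (65.8 to 68.9) and 13% (11.9 to 14.1). Distal sites kept in sperm had 94.1% (91.2 to 96.1) and 61.9% (56.8 to 66.8). All distal rows had 35.4% and 6.58%. The rule asked for peaks in 3 further MS and RS lists, which only part of all distal rows have (42.5% in SV129 RS and 73.9% in WT MS), so a higher share of the chosen sites in another MS or RS list is built into the choice. The gene-end sites and the sites kept in sperm met the same 4 lists. The distal closing sites were below the distal sites kept in sperm at both stages, with intervals apart. Of the kept sites, 195 had no ES peak, and these had 93.3% (88.9 to 96.1) and 43.1% (36.3 to 50.1), also above the distal closing sites. The kept sites were wider, with a median of 264 against 157 bp, and overlap was counted from 1 bp. The part of width was not tested. Compared with gene-end closing sites the share of the distal closing sites was lower at MS, with intervals apart, while at RS the intervals overlapped. With only the upper 50% of cKO rows by score, the shares of the distal closing sites were 29.2% at MS and 7.51% at RS.

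Site by site, 628 (9.73%) had a peak in both the cKO MS and the cKO RS list, 2950 (45.7%) in that of MS only, 263 (4.07%) in that of RS only, and 2614 (40.5%) in neither. Of the 891 with a cKO RS peak, 70.5% (67.4 to 73.4) also had a cKO MS peak, against 87.2% (83.8 to 90) among gene-end closing sites. The ES lists are short, with 401 autosomal rows in cKO, 692 in SV129 and 467 in WT, so few sites of any set can have an ES peak. Such a peak was found at 26 sites in cKO (0.403%), 30 in SV129 (0.465%) and 12 in WT (0.186%). Over all rows these shares were 0.85%, 1.18% and 0.816%, and over all distal rows 1.18%, 1.67% and 1.17%. The sites were below both in each background, and the rule had removed every site with a sperm peak, while 44.8%, 45.1% and 45.4% of the distal sites kept in sperm had an ES peak in cKO, SV129 and WT. In any ES list a peak was found at 0.682% of the sites, or at 0.415% when only the upper 50% of WT rows chose them. In the cKO sperm list, of 1050 autosomal rows, 4 sites had a peak (0.062%, 0.0241 to 0.159), against 2.85% of all rows and 54.3% of the distal sites kept in sperm. Of the 195 kept sites without an ES peak, 36 (18.5%, 13.6 to 24.5) had one.

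**Figure D2:**
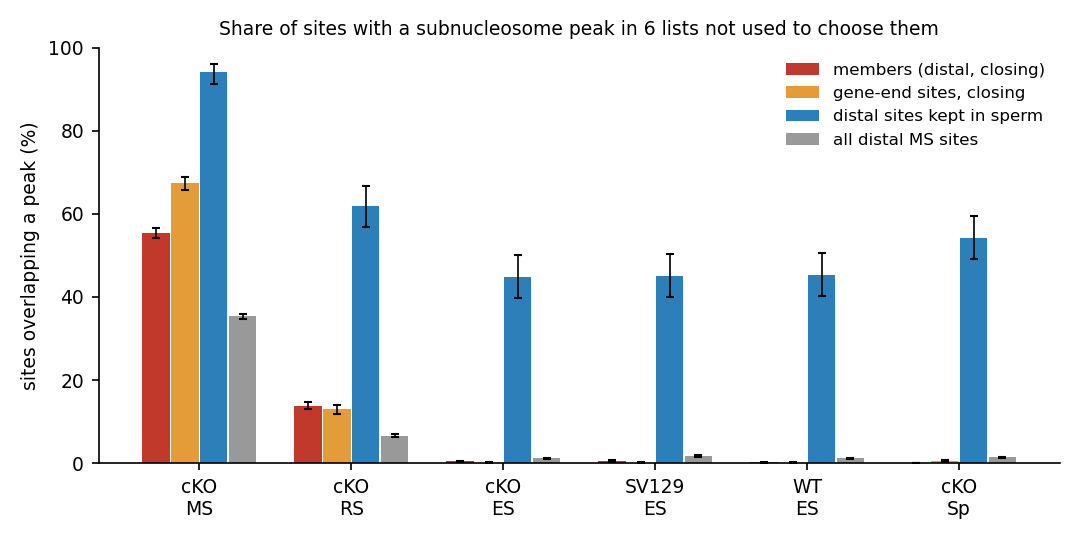
Share of sites (vertical axis, percent) that overlap a subnucleosome peak in the 6 lists not used to choose them, for the 6455 distal closing sites (red), gene-end sites that closed in the same way (orange), distal sites kept in both sperm lists (blue) and all distal SV129 MS sites (grey), with Wilson 95% intervals. The distal closing sites stand at 55.4% in cKO MS and 13.8% in cKO RS and near 0 in the ES lists and in cKO sperm.

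Because the cKO lists are shorter, the WT list of each stage was also shortened to its highest-scored rows until it had as many autosomal rows as the cKO list. This was chosen after the other values were seen, and since WT peaks chose the sites it is a description only. At RS, with 4038 rows each, the cKO list covered 891 of the sites (13.8%) and the shortened WT list 1315 (20.4%, 19.4 to 21.4). Gene-end closing sites had 13% and 14.6% (13.4 to 15.8), and distal sites kept in sperm 61.9% and 28% (23.6 to 32.9). At MS, with 15587 rows each, the cKO list covered 55.4% of the distal closing sites and the shortened WT list 60.5% (59.3 to 61.7). Gene-end closing sites had 67.4% and 79.2%, and distal sites kept in sperm 94.1% and 87.4%. A WT peak was a condition of the choice in all 3 sets, and a cKO peak was not. Of the kept sites without an ES peak 43.1% had a cKO RS peak, and the shortened WT list was not counted for them.

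Whether a site had a cKO peak went with its score in WT. The score is the authors' own value for each peak, on a scale that is not stated, and is used only to rank peaks within a list. The sites had a median score of 34.1 in the WT RS list, whose median over all its rows was 17. In the WT MS list the values were 28.8 and 22.2. Peaks in both lists were part of the rule, and the highest score at a site was taken. These medians therefore cannot be told apart from the choice. Gene-end closing sites had 35.1 at RS and 36 at MS, and distal sites kept in sperm 42.9 and 46.2. In 4 classes of equal size by WT RS score, with limits at 22.5, 34.1 and 49.8, a cKO RS peak was found at 0.867% (0.517 to 1.45), 4.58%, 12.9% and 36.9% (34.6 to 39.3) of the sites, from the lowest to the highest class. In 4 classes by WT MS score, with limits at 18.9, 28.8 and 41.9, a cKO MS peak was found at 18% (16.2 to 19.9), 42.8%, 68.4% and 92.6% (91.2 to 93.8).

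Within these classes distal and gene-end closing sites had similar shares. Gene-end sites had 0.863%, 4.1%, 13.6% and 36.8% at RS and 15.6%, 45.7%, 70.7% and 92% at MS, in the same classes, with intervals that overlapped those of the distal sites in all 8. Distal sites kept in sperm had 41.1%, 42.1%, 63% and 82.4% at RS, above the closing sites in each class. Many of those also had ES peaks. Without these, 195 sites remained, and their shares at RS were 5.26% (0.935 to 24.6), 12.2% (5.32 to 25.5), 51.4% (40.2 to 62.4) and 65.6% (53 to 76.3). In the lowest 2 classes these intervals overlapped those of the closing sites, and in the highest 2 they lay above them.

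**Figure D3:**
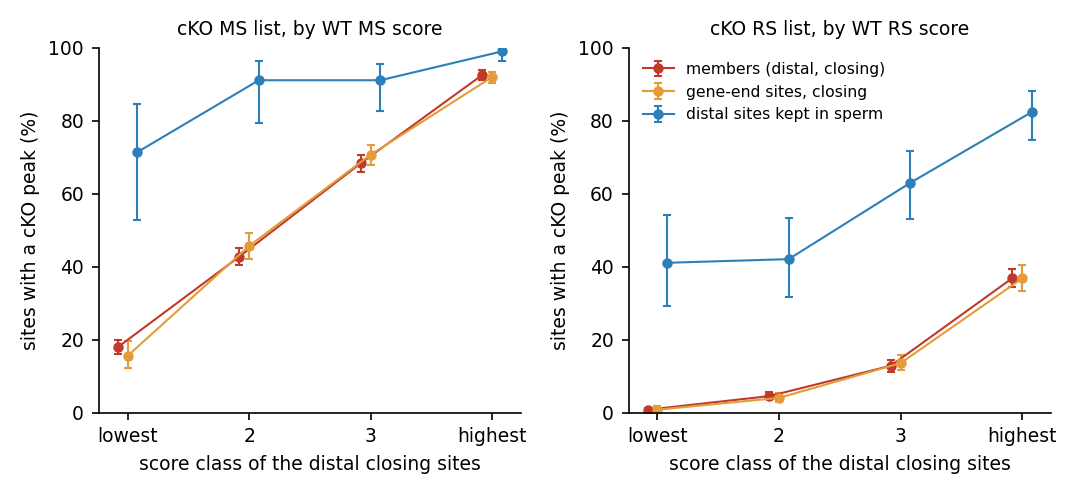
Share of sites with a cKO peak (vertical axis, percent) in 4 classes by the authors' WT score at the same stage (horizontal axis, limits set on the distal closing sites), for distal closing sites (red), gene-end closing sites (orange) and distal sites kept in sperm (blue), with Wilson 95% intervals. The red and orange points overlap in every class, and the blue points lie above them at RS.

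The share also shifted with distance from genes, in opposite directions at the stages. Sites from 500 to 2000 bp from a gene end had a cKO MS peak in 62.5% (58.8 to 66) and a cKO RS peak in 9.75% (7.74 to 12.2). Sites over 200 kb away had 48.5% and 19.2%. Inside genes the shares were 58.6% at MS and 12.5% at RS, and outside genes 53% and 14.8%. Sites in a promoter window of a protein-coding gene, 445 in all, had a cKO MS peak in 71.7% (67.3 to 75.7) and a cKO RS peak in 14.4% (11.4 to 17.9). The 354 in a lncRNA window had 61.9% and 17.2%, and the 5656 in no window 53.7% (52.4 to 55) and 13.5% (12.7 to 14.5). Those 5656 include the 282 on chromosome 18, for which no windows were held. Sites whose window held an X-box had a cKO RS peak in 16.3% (10.5 to 24.6) and those whose window held none in 15.5% (13 to 18.4). For the CRE the shares were 7.32% (2.52 to 19.4) of 41 sites and 16.1% (13.7 to 18.9), and for the CCAAT box (CCAAT), the NF-Y site, 19.9% (15.9 to 24.6) and 12.9% (10.2 to 16.1). The intervals overlapped for each of these motifs.

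Nucleosome calls at these sites were fewer in cKO than in SV129 and WT at MS and RS. The sites were chosen by peaks in the MS and RS lists of SV129 and WT and by no cKO list, and the calls come from the same libraries as the peaks. A difference between the backgrounds at these stages therefore cannot be told apart from the choice. At RS a call overlapped 14.2% of the sites in cKO (13.4 to 15.1), 43.9% in SV129 (42.7 to 45.1) and 64.9% in WT (63.7 to 66.1). The shares over all SV129 MS rows, which include gene ends, were 17.6%, 40% and 47.2%, and over all distal rows 9.99%, 26.5% and 35.8%. The sites were thus above distal rows in all 3 backgrounds, but below both sets that met the same 4 lists. Gene-end closing sites had 34.8% in cKO, 71.4% in SV129 and 79.1% in WT. Distal sites kept in sperm had 42.9%, 70.9% and 78.7%. In SV129 and WT the rise over distal rows cannot be told apart from the choice by RS peaks. The sites were also wider than distal rows, 157 against 126 bp, and the part of width was not tested. The 3 RS lists were of similar length, with 205827 autosomal calls in cKO, 228634 in SV129 and 252705 in WT. With an overlap of at least 50% asked both in choosing the sites and in counting calls, 6002 sites remained and the RS shares were 4.22%, 20.4% and 45.4%, in the same order. At MS the shares were 39.3% in cKO, 52.6% in SV129 and 59.1% in WT. They were below those of all rows, 47.4%, 57.6% and 61.8%, and above those of all distal rows, 34.9%, 46.1% and 50.1%.

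At ES, a stage that the rule did not use, the shares lay close together. A call overlapped 11.6% of the sites in cKO, 12.5% in SV129 and 11.4% in WT, against 14.8%, 14.3% and 13% of all rows and 10.4%, 11.3% and 10% of all distal rows. In sperm 526 sites had a call in cKO (8.15%, 7.51 to 8.84), 88 in SV129 (1.36%) and 63 in WT (0.976%). All rows had 17.2%, 4.94% and 2.91%, and all distal rows 8.19% (7.83 to 8.56), 2.17% and 1.36%. The cKO sperm share was thus close to that of all distal rows, and those of SV129 and WT, whose sperm peaks the rule had barred, were lower, with intervals apart in SV129 and overlapping in WT. The sperm shares depended on how a call was counted: with the 50% overlap they were 2.82%, 0.433% and 0.0833%, and without calls at the most common score of each list 5.21%, 1.01% and 0.403%, in the same order. The cKO sperm list was also far longer, with 340109 autosomal calls against 11846 in SV129 and 7050 in WT, and gene-end closing sites had calls at 33.9%, 10% and 7.98%.

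**Figure D4:**
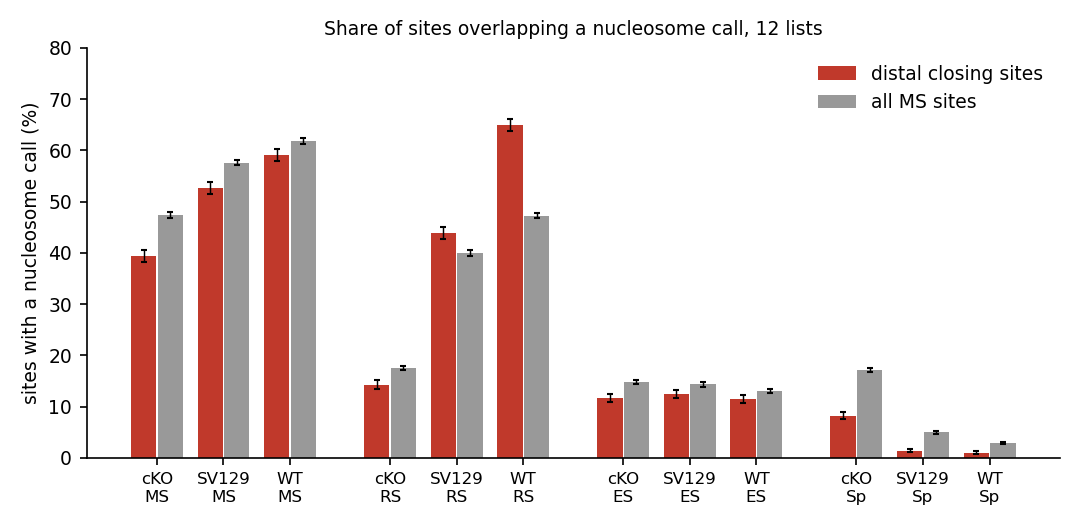
Share of sites (vertical axis, percent) that overlap a nucleosome call in each of the 12 lists, for the distal closing sites (red) and all autosomal SV129 MS sites (grey), with Wilson 95% intervals. At RS the red bars stand at 14.2% in cKO, 43.9% in SV129 and 64.9% in WT.

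The calls also lay differently around the sites. In WT MS their centres were most frequent on both sides, with 386 per 1000 sites in the 50 bp bin centred 125 bp before the site centre and 421 in the bin centred 175 bp after it, and 285 in the bin at 25 bp. At RS the backgrounds differed in shape. In cKO RS the bin at 25 bp had 33 and the highest bins on the sides 55.5 and 58.4. SV129 RS also had its highest bins on the sides, 204 before and 240 after the site, with 193 at 25 bp. WT RS alone had its highest bin, 486, at 25 bp. Over the 100 bp on either side of the centre the density was 36.9 per 1000 sites and 50 bp in cKO RS, 168 in SV129 RS and 380 in WT RS, which is 8.83, 36.1 and 74.1 times the mean of the autosomes in the same list. In MS it was 104 in cKO, 202 in SV129 and 233 in WT. The same RS folds over the list mean were 20.7 in cKO, 61.2 in SV129 and 81.6 in WT at gene-end closing sites, and 44.5, 117 and 111 at distal sites kept in sperm, so cKO had the lowest value at all 3 sets, each chosen by SV129 and WT peaks.

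In ES the densities over the sites were 35 in cKO, 35.7 in SV129 and 35.7 in WT, which is 3.22, 3.69 and 3.02 times the mean of the same list. In sperm they were 19.9 in cKO, 2.9 in SV129 and 1.36 in WT, which is 2.88, 12.1 and 9.46 times the list mean. Relative to its own list, cKO sperm thus had the smallest rise at the sites, although it had the highest absolute density.

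**Figure D5:**
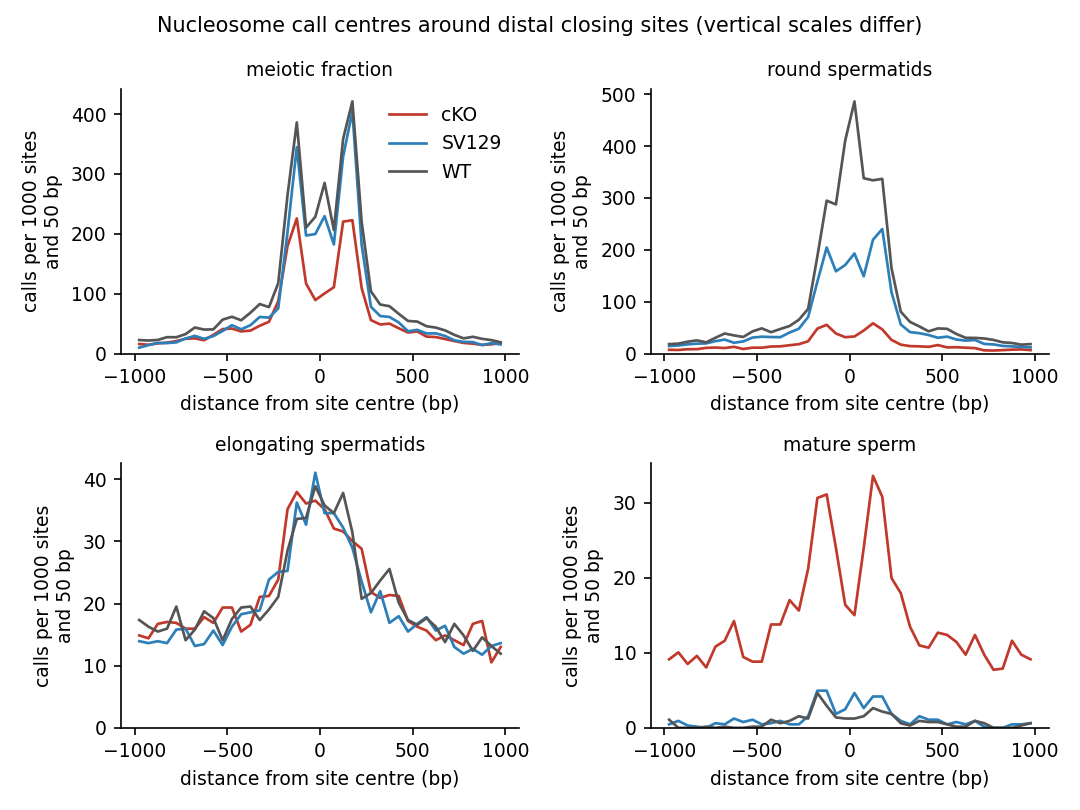
Nucleosome call centres per 1000 distal closing sites and 50 bp (vertical axis, scales differ) by distance from the site centre in bp (horizontal axis), in the 4 stages, for cKO (red), SV129 (blue) and WT (grey). In round spermatids the WT line has a single highest point of 486 near the centre, and the cKO line reaches at most 58.4.

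Sites that kept a peak in the cKO RS list had more calls in every RS list. A cKO RS call overlapped 22.9% of the 891 with such a peak (20.3 to 25.8) and 12.9% of the 5564 without (12 to 13.8). An SV129 RS call overlapped 74.4% and 39%, and a WT RS call 93.2% and 60.4%. In the MS lists the same sites did not stand apart, with a cKO MS call at 39.4% and 39.2% and a WT MS call at 59% and 59.1%. In the ES lists they did, with intervals apart: a call overlapped 17.1% and 10.7% in cKO, 16% and 11.9% in SV129, and 15.9% and 10.7% in WT. In the sperm lists the intervals overlapped. RS calls were also more frequent at a higher WT score: in the lowest WT RS score class 11.3% of the sites had a cKO RS call, 24.7% an SV129 call and 32.8% a WT call, and in the highest class 18%, 65.5% and 92.2%. In the highest class alone the order held, with a cKO RS call at 24% (20.8 to 27.6) of the 595 sites with a cKO RS peak and at 14.5% (12.5 to 16.8) of the 1018 without. Those with the peak had a higher median score, 65.4 against 59.1, and were wider, 198 against 156 bp, and the part of either was not tested.

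The 8 sites with the highest WT RS scores had scores from 100.3 to 115, and 7 of the 8 had a peak in the cKO RS list. The top one, chr10:12557778-12558012, lies inside Utrn, which encodes utrophin, a cytoskeletal relative of dystrophin, 175591 bp from an end of the gene. Its score was 52.02 in the cKO RS list and 34.77 in the cKO MS list, against a WT RS score of 115 and a WT MS score of 68.52, on scales that cannot be compared between lists. The next, chr4:64588085-64588388, lies 535786 bp from Pappa, a protease of insulin-like growth factor binding proteins. Of the others, 3 lie in Nr3c2, the mineralocorticoid receptor, and in the heparan sulfate sulfotransferase genes Hs6st3 and Hs3st5. The site without a cKO RS peak, chr4:145640552-145640958, overlaps the pseudogene Gm13231.

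The 6 widest sites ran from 767 to 808 bp, and 3 of them lay between 145463529 and 146475551 on chromosome 4, each touching an annotated pseudogene, the widest Smarca5-ps. Genes such as Zfp987 and Zfp992 there have close relatives nearby, so reads may be shared between copies and these values are uncertain. The others lay in Ulk4, in Mbd6, a methyl-CpG-binding domain gene, and 15099 bp from Add2, the cytoskeletal adducin. The site farthest from a gene, chr14:90702823-90703011, lay 2231427 bp from an end of Pcdh20, a protocadherin, and had a cKO MS peak and no cKO RS peak.

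Genes of sperm formation were the nearest gene of few sites, as they were of few distal rows of any kind. The nearest protein-coding gene is only a neighbour and need not be a target. For 14 sites (0.217%, 0.129 to 0.364) it was 1 of 46 meiotic genes, against 26 (0.12%) of all distal rows, which include the 14. The 14 stood at 11 genes, and this was 1 of 9 gene lists, so the counts are too small to set the shares apart. The site in Ccna1, the cyclin of male meiosis in mouse, chr3:55055025-55055329, overlapped an alternative start and had a WT RS score of 68.05, with peaks in both cKO lists. It was the only one of the 14 with a cKO RS peak, while 8 had a cKO MS peak. Sites in Spo11, which makes meiotic double-strand breaks, in Sycp2, of the synaptonemal complex, and 508 bp from an end of Tex15, needed for meiotic recombination in mouse, had a cKO MS peak only. Sites in Sycp1, a transverse filament protein of the same complex, and in Brca2 had neither.

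For 16 sites (0.248%, against 0.231% of all distal rows) the nearest was 1 of 57 spermatid genes, and 7 of them had a cKO RS peak, 10 a cKO MS peak. Rfx3, itself an X-box factor, had 3 sites, with cKO RS peaks at 2: chr19:27748294-27748572, 13149 bp away with a WT RS score of 79.3, and chr19:28011486-28012136 inside the gene. The third, chr19:28011066-28011180, overlapped an alternative start window that holds an X-box and had no cKO peak. The site in Sox30, a transcription factor of spermiogenesis in mouse, chr11:45979855-45980321, and that in Gapdhs, the sperm-specific glycolytic enzyme, chr7:30743705-30743826, overlapped alternative starts and had peaks in both cKO lists. Sites nearest Crem, in Odf2, of the outer dense fibres of the tail, and that at 1289 bp in Dnah8, a flagellar dynein, had no peak in the cKO MS list. The 7 of 16 with a cKO RS peak stands beside 13.8% of all the sites, on a count too small for more than this.

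Of 47 chromatin regulators, 12 were the nearest gene of a site, 16 sites in all (0.248%, against 0.208% of all distal rows), of which 10 had a cKO MS peak and 1 a cKO RS peak. Several belong to histone acetylation. Kat2b, the close relative of Gcn5, had a site over an alternative start with a WT RS score of 61.36 and a cKO MS peak only. Sgf29, a SAGA subunit, had 2 sites and Kat5, the catalytic subunit of the NuA4 complex, 2, each with a cKO MS peak at 1 and a cKO RS peak at none. The site 687 bp from Ep300, an acetyltransferase, had a cKO MS peak only, and that in Sirt1, a deacetylase, neither. The exception at RS was Kat6b, an acetyltransferase, with a site at chr14:21501164-21501307.

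Developmental transcription factors were the nearest gene of 70 sites (1.08%, 0.859 to 1.37), against 1.2% of all distal rows, over 41 genes, with cKO MS peaks at 43 and cKO RS peaks at 8. Sox5 had 8 of these sites, Foxa2 and Lhx8 had 4 each, and Sox2, Runx1 and others fewer. None of the 4 at Foxa2 had a cKO peak. Spermatogonial genes had 7 sites (0.108%, against 0.157% of all distal rows) and housekeeping genes 10 (0.155%, against 0.129%). Of markers of other cell types, the 19 autosomal Sertoli and Leydig cell markers were nearest to 1 site (0.0155%, against 0.0878%), 37359 bp from Sox9. The 15 blood and immune markers were nearest to 0, with an interval up to 0.0595%, against 0.00924%. The 12 epididymal and epithelial markers were nearest to 6 (0.093%, 0.0426 to 0.203, against 0.0693%), of which 4 were at Epcam and 2 at Aqp9. These counts concern the position of sites only, and the purity of the fractions was not tested.

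Non-coding gene ends lay within 500 bp of 802 sites (12.4%, 11.6 to 13.3), against 9.6% of all distal rows. Most were lncRNA ends, at 632 sites (9.79%, 9.09 to 10.5) against 7.13%. The sites at lncRNA ends had a cKO MS peak in 58.5% (54.7 to 62.3) and a cKO RS peak in 15.2% (12.6 to 18.2), near the shares of all the sites. The 80 at pseudogene ends had a cKO RS peak in 23.8% (15.8 to 34.1), where shared reads between copies cannot be told apart from peaks of their own.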

How the data were processed

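ATAC-seq was analysed from 24 lists in BED form, 12 of subnucleosome peaks and 12 of nucleosome calls, 1 of each per group, with no values per library. The submitters' processing notes name STAR 2.5.2a, MACS2 2.1.0.20140616 and build GRCm38 (mm10), without their role. The sources used here do not say how the lists were called or how libraries were joined into 1 list. The score column deposited by the authors is on an unstated scale and is 0 throughout in the SV129 subnucleosome lists; it was used only to rank rows within WT or cKO lists.

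The sites were found by the rule in the opening. The rule, the gene lists, the motifs and the sets compared were chosen with earlier results of these data known. Overlap was counted from 1 bp. The gene table is RefSeq GRCm38.p6. Comparison sets were gene-end rows that met the rest of the rule (3495), distal rows in the same 4 lists and in both sperm lists (357), all distal rows and all rows. Sites were named by rules on score, width, distance, ES and cKO sperm peaks, gene lists, genes with most sites and non-coding ends. No genome was used, so motifs planned for the sites were counted, on both strands, in RefSeq promoter windows that they overlap; chromosome 18 has no rows in that table, and windows of neighbouring starts can overlap. The calculations used python 3.11.15, pandas 2.3.3 and scipy 1.17.1, and the overlap and distance steps were tested on simulated rows. With 1 list per group no test between conditions, replicate fit or depth estimate was possible. A gene that the naming rule selects is not reported here.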

Additional observations from a re-analysis of the deposited data

How the results depend on the processing

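Each result was recomputed with an overlap of at least 50% of the SV129 MS row, with 2000 bp around gene ends, from the WT MS list, with the upper 50% of WT rows by score, with no sperm peak within 1000 bp, and with sites that share a WT RS peak counted as 1. Leaving out sites with an ES peak, or sites in a promoter window, was added after seeing the data. Of the main results so recomputed, 56 values stayed within the interval of the reported one or, for the number of sites, within 1.5 times, and 25 did not. Only the upper 50% of WT rows moved the number of sites that far, to 3852; it also gave 72.4% with a cKO MS peak, 16.9% with a cKO RS peak, 0.415% with an ES peak against 0.682% for any ES list as reported, 16.1% with a cKO RS nucleosome call, 45.5% in genes, a width of 177 bp and 40.7% in the highest score class. An overlap of 50%, in choosing sites, in barring sperm peaks and in counting, gave 49.1%, 9.95%, 4.22% for the nucleosome call, 154 bp and 26.5%. RS calls were then at 4.22% in cKO, 20.4% in SV129 and 45.4% in WT, in the same order. With 2000 bp the nucleosome share was 13%, the share in genes 40% and the width 154 bp. From the WT MS list the nucleosome share was 15.7% and the width 187 bp. The upper 50% of cKO rows by score gave 29.2% at MS and 7.51% at RS, by construction of shorter lists. Leaving out nucleosome calls at the most common score gave 11.1%. Without sites in promoter windows the values were 53.7%, 13% for the nucleosome call, 40.8% in genes and 153 bp. Other causes were not tested. No paired analysis was possible because each group has 1 list without values per library, and leaving out a replicate was not run for the same reason. Unknown depth limits every statement on absence.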

Other observations

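A small group of sites kept a peak in elongating spermatids. Of the 44 with a peak in at least 1 ES list, 18 had one in at least 2, and 14 of these 18 had a cKO MS peak and 8 a cKO RS peak. Their WT RS scores ran from 9.28 to 57.4 with a median of 18.7, under the 34.1 of all the sites. They include sites in Ror2, a receptor of Wnt ligands, in Lama1, a laminin chain, and in Flt1, a receptor of vascular endothelial growth factor. With sites that overlap an ES peak left out, 6411 remained and the shares with a cKO MS and a cKO RS peak were 55.4% and 13.6%.

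The 4 sites with a peak in the cKO sperm list were chr10:81571565-81571865, 2874 bp from an end of Tle2, a corepressor, chr2:3418964-3419221 in Meig1, a gene of spermiogenesis in mouse, chr17:13552825-13553091 and chr9:124257750-124257843. The last 2 also had peaks in at least 2 ES lists.

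The nucleosome profiles were not even about the site centres. In the SV129 and WT MS lists and in SV129 RS the highest bin before the site was centred at 125 bp and the highest after it at 175 bp, and the one after it was the higher, with 405, 421 and 240 call centres per 1000 sites against 345, 386 and 204 before it. In cKO MS the highest bins lay at the same distances, with 226 before and 223 after the site. The offset was not particular to these sites. At gene-end closing sites the highest bin was also the one 175 bp after the centre in SV129 MS, WT MS and SV129 RS. The cause was not tested.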
